A study of Rattus norvegicus with 16 samples.

Results

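Genes of respiratory complexes II to V were followed in the left ventricle of rats bred for high or low running capacity, with and without interval training. They were chosen by gene name, with earlier results of these data known. A probe set was taken where its single gene symbol in the platform's annotation began with Sdh, Uqc, Cox4, Cox5, Cox6, Cox7, Cox8 or Atp5, or was Cyc1 or Cycs. This gave 63 of the 31042 tested probe sets, which stood for 55 of the 14217 named genes. Complex II had 8 genes, complex III 14, complex IV 17 and complex V 16. Cytochrome c (Cycs) had 0 matching probe sets and is not analysed here, and 7 probe sets that list a member beside other genes were left out. Each gene was represented by its probe set of highest mean.

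Mitochondria pass electrons from succinate through complex II, and from reduced coenzyme Q through complex III and cytochrome c, to complex IV, which reduces oxygen to water. Complexes III and IV pump protons across the inner membrane, and complex V lets them flow back to make ATP. Heart muscle makes most of its ATP this way, and several complex IV subunits exist as a heart and muscle isoform beside a general or liver isoform. Assembly factors build the complexes without remaining in them. Among the members, 42 genes encoded subunits and 10 encoded assembly factors, namely Sdhaf1 to Sdhaf4 for complex II and Uqcc1 to Uqcc6 for complex III. The other members were Atp5if1, an inhibitor of ATP hydrolysis by complex V, Cox7a2l, which links complexes III and IV, and Cox6c-ps1, annotated as a pseudogene.

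The 16 female rats, about 7 months old, belonged to generation 16 of High Capacity Runner (HCR) and Low Capacity Runner (LCR) lines selected from the N:NIH stock. The groups were HCR trained, HCR sedentary, LCR trained and LCR sedentary, with 4 rats and 4 arrays each, named here by the rat numbers in the labels. Training was treadmill interval running for 8 weeks, 5 sessions a week of 1.5 hours, with work bouts of 8 minutes and recovery bouts of 2 minutes, and sedentary rats were age-matched. Each line is 1 selected population, so what selection fixed and what drift fixed cannot be told apart.

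Values are log2 expression values made with RMA on whole-genome rat arrays of Affymetrix, so 1 unit is a doubling, and they show a gene's change between groups but not its level against another gene. Values after ± are standard errors of a fitted difference unless marked SD. Calls needed a limma adjusted p no higher than 0.05. Of the 55 members, 53 had a mean at or above that of the median probe set, the exceptions being Cox6b2 and Cox7b2, known as testis isoforms. Arrays of 1 group correlated at r between 0.989 and 0.995 over probe sets. The 7 measured of 8 cardiomyocyte markers averaged between 13.60 and 13.71 in every array. HCR sedentary arrays had a higher median than LCR sedentary arrays (5.93 ± 0.021 and 5.87 ± 0.014, SD, n = 4 each) and a narrower interquartile range (2.02 ± 0.057 and 2.17 ± 0.026, SD, n = 4 each). Both had an exact two-sided permutation p of 0.0286, the smallest that 4 against 4 allows, and 0.114 after adjustment over 12 tests of array properties. HCR sedentary rat 5 went against its label of female, with 4 Xist probe sets at 3.76 to 4.94, against 7.56 to 10.34 in the other 15 arrays. The line comparison in sedentary rats also rested on single arrays over all genes. It called 6.3% of genes with all arrays, 0.499% without HCR sedentary rat 5, 0.443% without HCR sedentary rat 4 and 0.148% without LCR sedentary rat 6.

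Between the lines, 1 of the 55 members passed the test, in the difference averaged over training, where 4.92% of all genes passed. This was Uqcc6, an assembly factor of complex III, which was higher in HCR. Most subunits of the 4 complexes differed between the lines by a few hundredths of a log2 unit, and none of the 42 was called. Subunit means reached 14.007 (Cox6a2), near the highest value of the series, 14.54. Whether differences are narrowed at such high signal was not tested. The other assembly factors of complex III lay below LCR in HCR sedentary rats without passing the test.

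In sedentary rats 0 of 55 members were called at HCR over LCR, beside 6.3% of all genes, and 11 (20.0%) had an unadjusted p under 0.05, beside 31.4% of all genes, of which 9 were lower in HCR. In trained rats 0 members were called, beside 0.0914% of all genes, and 3 (5.45%) had such a p, beside 8.4% of all genes. Averaged over training 1 member was called, beside 4.92% of all genes, and 12 (21.8%) had such a p, beside 27.9% of all genes. The median difference over members was -0.0305 in sedentary rats and -0.016 in trained rats, beside -0.0176 and -0.00337 over all genes. With only probe sets at or above the median mean, where 53 of the 55 members lie, the order in sedentary rats was the other way. There the medians were -0.0306 over members and -0.0824 over all genes, and in trained rats -0.0192 and -0.0112. Arrays of the groups did not overlap for 4 members in sedentary rats, beside 20.2% of all genes, and for 4 members in trained rats, beside 3.36% of all genes. The 4 in sedentary rats were Uqcc6, higher in HCR, and Sdhaf4, Uqcc1 and Atp5mf, lower in HCR. The 4 in trained rats were Uqcc6, higher in HCR, and Uqcr11, Cox7a2l and Atp5mg, lower in HCR. In sedentary rats the 95% interval of the difference lay within 1.25-fold for 45 members (81.8%), beside 58.3% of all genes. Without HCR sedentary rat 5, 0 members were called in sedentary rats, beside 0.499% of all genes, and 1 averaged over training, beside 2.2% of all genes. The sedentary median over members was -0.0381 without that array and -0.0124 without HCR sedentary rat 4, beside -0.0131 and -0.016 over all genes.

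**Figure D1:**
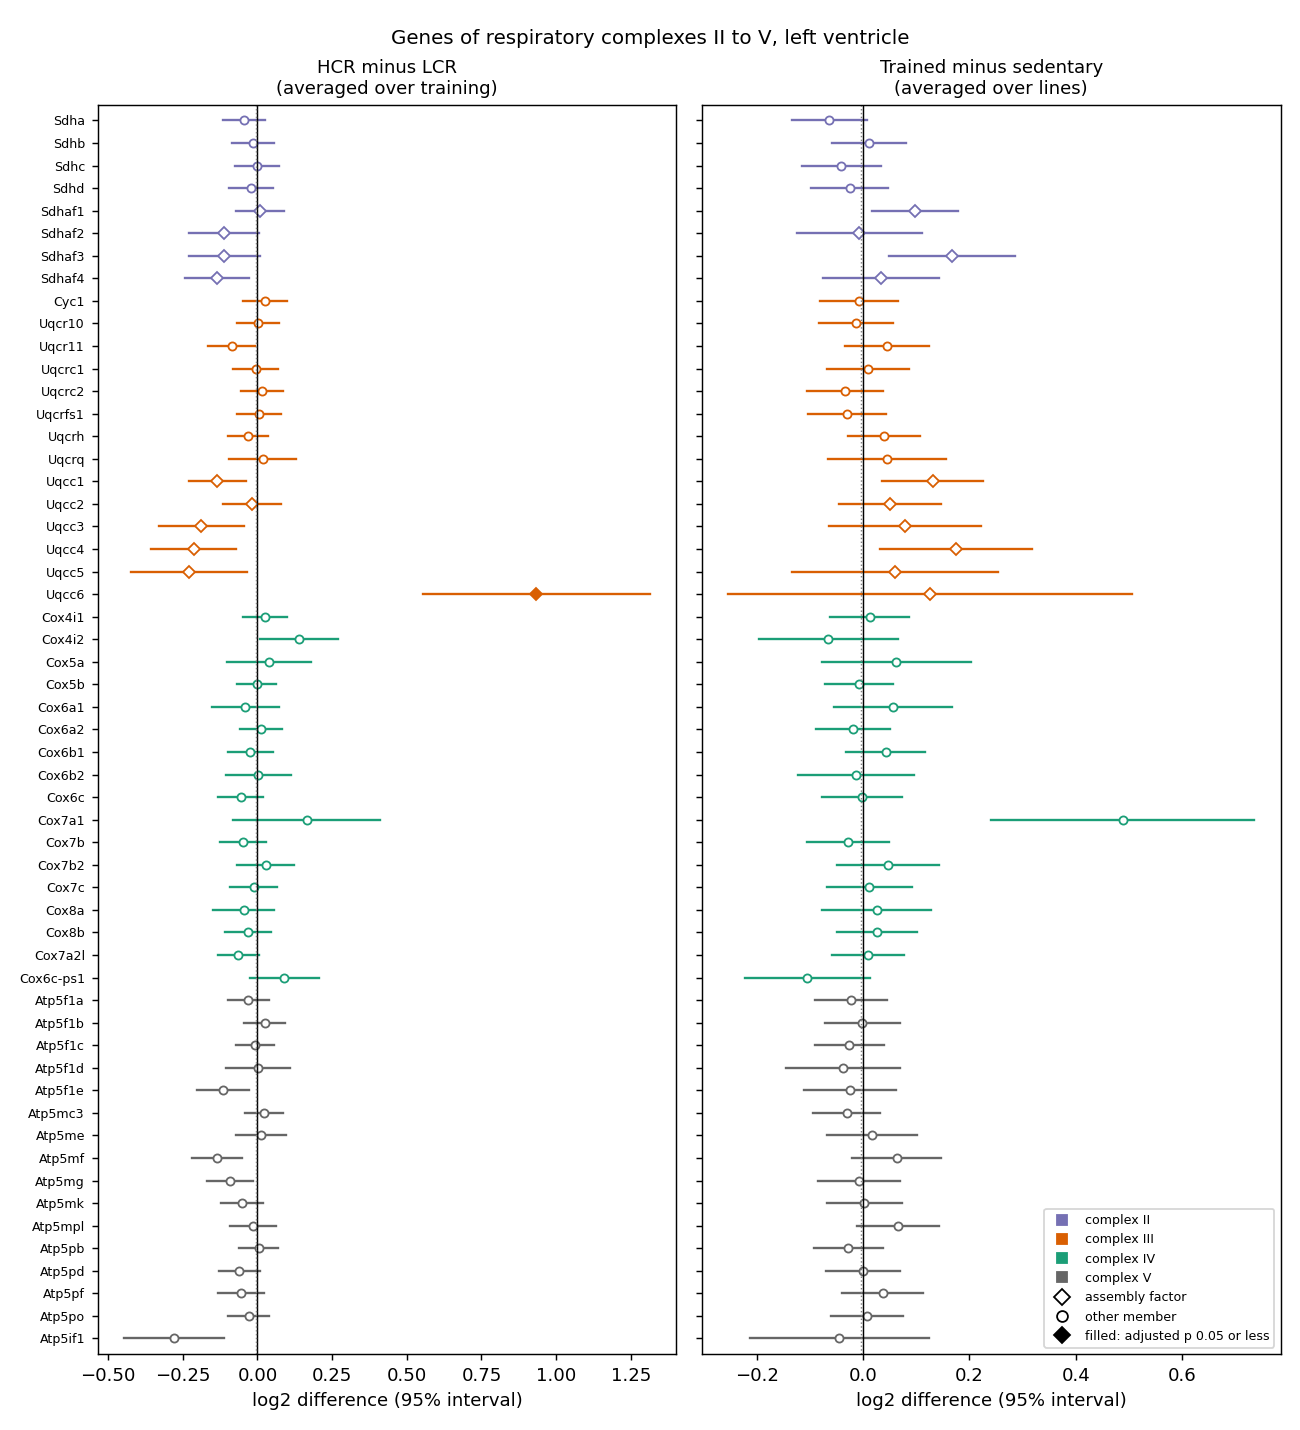
Fitted log2 differences of the 55 members with 95% intervals, HCR minus LCR on the left and trained minus sedentary on the right, each averaged over the other factor. Diamonds are assembly factors, circles the other members, and colours the complexes. Uqcc6 at 0.93 is the filled point of the left panel, and Cox7a1 at 0.49 stands furthest right in the right panel without passing the test. The dotted line is the median of all genes.

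The 4 subunits of complex II, also an enzyme of the citric acid cycle, had line differences between -0.0463 and -0.003 in sedentary rats. Sdha, the flavoprotein that oxidises succinate, had 12.42, 12.33, 12.42 and 12.40 in HCR trained rats and 12.42, 12.42, 12.47 and 12.50 in HCR sedentary rats. It had 12.44, 12.45, 12.48 and 12.37 in LCR trained rats and 12.47, 12.55, 12.47 and 12.50 in LCR sedentary rats. The HCR trained arrays lay just below the HCR sedentary arrays and overlapped the LCR trained ones. Averaged over training, HCR minus LCR was -0.05 ± 0.033 for Sdha (adjusted p = 0.415) and -0.01 ± 0.033 for Sdhb, the iron-sulfur subunit (adjusted p = 0.812). The membrane anchors Sdhc and Sdhd stood at -0.0016 and -0.022 in the same comparison.

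Complex III had 8 subunits with line differences between -0.105 and 0.0534 in sedentary rats and between -0.0685 and 0.0612 in trained rats. Uqcrc1, a core protein, had 13.16, 13.03, 13.12 and 13.16 in HCR trained rats and 13.06, 13.02, 13.11 and 13.13 in HCR sedentary rats, with 13.07, 13.17, 13.08 and 13.08 in LCR trained rats and 13.09, 13.18, 13.05 and 13.14 in LCR sedentary rats. All 4 groups overlapped. Its averaged line difference was -0.0065 ± 0.036, with a 95% interval from -0.0834 to 0.0704. The Rieske protein Uqcrfs1 and cytochrome c1 (Cyc1) had 0.0061 ± 0.035 and 0.03 ± 0.035. The largest value of the subunits was that of the small subunit Uqcr11, at -0.09 ± 0.038 (adjusted p = 0.171).

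Complex IV had 15 subunits with a median line difference of -0.00258 in sedentary rats and 0.00695 in trained rats. Cox6a2, the heart and muscle isoform of subunit VIa, lay between 13.93 and 14.08 in all 16 arrays, and its averaged line difference was 0.01 ± 0.033. Cox8b, the heart and muscle isoform of subunit VIII, stood at -0.03 ± 0.036, Cox4i1, the general isoform of subunit IV, at 0.03 ± 0.035, and the liver isoforms Cox6a1 and Cox8a at -0.04 ± 0.052 and -0.05 ± 0.049. The intervals of these 5 genes all held 0. Cox4i2, known as a lung isoform induced by low oxygen, had the lowest p of the complex IV members above 0, at 0.14 ± 0.062 (adjusted p = 0.182). It ranged from 7.25 to 7.68 in HCR trained rats and 7.52 to 7.79 in HCR sedentary rats, and from 7.33 to 7.55 in LCR trained rats and 7.36 to 7.53 in LCR sedentary rats. All 4 ranges overlapped. Cox7a2l stood at -0.06 ± 0.032 (adjusted p = 0.236).

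Cox6c-ps1 had 6.39, 6.29, 6.43 and 6.56 in HCR trained rats and 6.78, 6.50, 6.68 and 6.66 in HCR sedentary rats. It had 6.46, 6.63, 6.40 and 6.36 in LCR trained rats and 6.52, 6.52, 6.33 and 6.36 in LCR sedentary rats. Of the HCR sedentary arrays, 3 were the highest of all 16. The line difference in sedentary rats was 0.23 ± 0.078 (adjusted p = 0.0868), and trained minus sedentary in HCR was -0.24 ± 0.078 (adjusted p = 0.242). Without HCR sedentary rat 5 these were 0.22 (adjusted p = 0.186) and -0.23 (adjusted p = 0.492). Both comparisons use the same HCR sedentary arrays. Whether RNA of the parent gene Cox6c adds to the signal of its probe set was not tested.

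Complex V had 12 of 15 subunits below 0 in sedentary rats and 11 of 15 in trained rats, with medians of -0.025 and -0.034. The catalytic F1 subunits Atp5f1a and Atp5f1b had averaged line differences of -0.03 ± 0.032 and 0.02 ± 0.033. Atp5f1b had 13.86, 13.75, 13.88 and 13.84 in HCR trained rats and 13.83, 13.86, 13.86 and 13.87 in HCR sedentary rats. It had 13.80, 13.87, 13.87 and 13.78 in LCR trained rats and 13.79, 13.85, 13.78 and 13.82 in LCR sedentary rats, so all groups overlapped. The lowest p of the subunits was that of Atp5mf, subunit f of the membrane part, with 12.99, 12.94, 12.81 and 12.90 in HCR trained rats and 12.92, 12.84, 12.79 and 12.88 in HCR sedentary rats. It had 13.16, 12.96, 13.06 and 13.05 in LCR trained rats and 13.01, 12.94, 12.97 and 13.02 in LCR sedentary rats. The sedentary groups did not overlap, and in trained rats 1 HCR array lay above the lowest LCR array. HCR minus LCR was -0.13 ± 0.056 in sedentary and -0.15 ± 0.056 in trained rats, and -0.14 ± 0.039 averaged over training (adjusted p = 0.0593). The central stalk subunit Atp5f1e and the membrane subunit Atp5mg stood at -0.11 ± 0.041 and -0.09 ± 0.036 in the same average (adjusted p = 0.109 and 0.139). The other 12 subunits lay between -0.0603 and 0.024.

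Atp5if1 blocks the reverse reaction of complex V, in which ATP is split. It had 10.22, 10.32, 10.38 and 10.03 in HCR trained rats and 10.43, 10.31, 9.98 and 10.24 in HCR sedentary rats. It had 10.47, 10.25, 10.77 and 10.41 in LCR trained rats and 10.71, 10.43, 10.62 and 10.49 in LCR sedentary rats. The sedentary groups met at 10.43, and the trained groups overlapped. HCR minus LCR was -0.32 ± 0.11 in sedentary rats, -0.24 ± 0.11 in trained rats and -0.28 ± 0.079 averaged over training, a fold of 0.824 (adjusted p = 0.058). Its other 2 probe sets, of low signal at means of 5.60 and 5.28, had averaged differences of -0.0318 and 0.00982. Without HCR sedentary rat 5 the average was -0.24 (adjusted p = 0.113). The average passed with centred arrays (adjusted p = 0.0391) and under 2 other settings, and without HCR sedentary rat 3 or LCR trained rat 2 (adjusted p = 0.0412 and 0.0273).

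The 10 assembly factors among the members had larger line differences than the 42 subunits, with a median size of 0.221 against 0.0332 in sedentary rats whatever the sign. Over all genes this median size was 0.122, so these subunits lay below it and these 10 assembly factors above it. The 31 other measured assembly factors, described further below, had a median size of 0.0832, below that of all genes. This is a description without a test. In sedentary rats the median over the 10 assembly factors was -0.193, beside -0.0237 over the 42 subunits and -0.0176 over all genes. With only probe sets at or above the median mean, it was -0.0824 over all genes. In sedentary rats 8 of the 10 lay below 0, beside 53.6% of all genes. In trained rats the median over the 10 was -0.077, beside -0.00959 over subunits. Only 1 of the 10, Uqcc6, was called in any comparison, and 7 had an unadjusted p under 0.05 in sedentary rats, 6 of them below 0, beside 31.4% of all genes with such a p. After a further quantile normalization of the arrays the sedentary median over the 10 was -0.0811, and with arrays centred on their medians it was -0.251. Against each gene's mean over the 16 arrays, the median of the 10 was -0.067, -0.251, -0.163 and -0.0125 in HCR sedentary rats 3, 4, 5 and 6, and between 0.00447 and 0.0656 in LCR sedentary rats. Rats 4 and 5, the lowest, were also the arrays with the highest medians (5.947 and 5.949) and the narrowest interquartile ranges (1.985 and 1.967) of all 16. Without rat 4 the sedentary difference had a median of -0.171 over the 10, and without rat 5 -0.166. The part of these array properties in the assembly factor values was not tested.

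Uqcc6, also known as brawnin, is a small inner-membrane protein needed to assemble complex III. It had 8.88, 9.18, 8.96 and 9.26 in HCR trained rats and 8.98, 8.85, 8.80 and 8.97 in HCR sedentary rats. It had 8.59, 8.43, 7.61 and 7.75 in LCR trained rats and 7.43, 7.48, 8.57 and 8.56 in LCR sedentary rats. All 8 HCR arrays lay above all 8 LCR arrays. Within each LCR group 2 rats lay near 8.5 and 2 below 7.8, with nothing between, and the SD was 0.488 in LCR trained and 0.641 in LCR sedentary rats, beside 0.178 in HCR trained and 0.0864 in HCR sedentary rats. HCR minus LCR was 0.98 ± 0.25 in trained rats (adjusted p = 0.245) and 0.89 ± 0.25 in sedentary rats (adjusted p = 0.0522). Averaged over training it was 0.93 ± 0.18, a fold of 1.91 with a 95% interval of 0.55 to 1.31 on the log2 scale (adjusted p = 0.0128). The average was called without any 1 of the 16 arrays, at adjusted p between 0.00917 and 0.0295, and HCR sedentary rat 5 left out gave 0.95. The limma fit assumes 1 spread for all groups, while the SDs here differ. The gene has 1 probe set, so no second probe set checks the values.

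The sequence before the start of Uqcc6 is shown because it is the called member, beside that of Uqcc1, the complex III member of lowest p below 0 in sedentary rats. Both are RefSeq windows on GRCr8 of 250 bases before to 50 bases after the annotated start, at chr7:22992323-22992622, plus strand, and chr3:164905729-164906028, minus strand. Capitals mark matches to the NRF1 core GCGCANGCG on either strand. NRF1 is a factor known to bind promoters of many respiratory genes.
Uqcc6 promoter: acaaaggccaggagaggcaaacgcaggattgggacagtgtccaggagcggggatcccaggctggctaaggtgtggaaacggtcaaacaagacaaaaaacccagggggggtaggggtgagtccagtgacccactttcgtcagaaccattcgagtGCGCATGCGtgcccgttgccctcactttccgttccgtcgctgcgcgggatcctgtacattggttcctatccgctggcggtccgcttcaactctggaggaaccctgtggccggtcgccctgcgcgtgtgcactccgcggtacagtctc
Uqcc1 promoter: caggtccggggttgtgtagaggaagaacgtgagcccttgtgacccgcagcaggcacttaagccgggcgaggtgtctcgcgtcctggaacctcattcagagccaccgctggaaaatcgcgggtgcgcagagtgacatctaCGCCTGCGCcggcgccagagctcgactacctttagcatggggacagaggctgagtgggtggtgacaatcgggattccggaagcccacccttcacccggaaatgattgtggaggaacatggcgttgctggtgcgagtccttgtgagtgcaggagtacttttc
The match began at position -97 in Uqcc6 and -111 in Uqcc1, with the annotated start at 0. Windows were matched by gene ID for 48 of the 55 members, 1 each. Of these, 15 (31.2%) held the NRF1 core, beside 5.8% of all 33469 windows in the RefSeq set. That set covers 27457 genes, whether on the array or not, and some have several windows. Its windows were not matched to those of the members in base content or signal. Assembly factors with a match were Sdhaf3, Sdhaf4, Uqcc1, Uqcc2, Uqcc5 and Uqcc6, and subunits with a match were Sdha, Uqcrc1, Atp5f1c, Atp5mc3, Atp5me, Atp5mg, Atp5mpl and Atp5po, with Cox7a2l beside them. Matches occurred in genes on both sides of 0 in the line comparison. A match is a description of these letters and does not show binding.

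The other 5 assembly factors of complex III, Uqcc1 to Uqcc5, stood between -0.293 and -0.103 in sedentary rats at HCR minus LCR. Uqcc1, which with Uqcc2 stabilises newly made cytochrome b, had 10.22, 10.12, 10.02 and 10.13 in HCR trained rats and 9.96, 9.80, 9.95 and 9.92 in HCR sedentary rats. It had 10.15, 10.34, 10.07 and 10.14 in LCR trained rats and 10.08, 10.15, 10.17 and 10.12 in LCR sedentary rats. The 4 HCR sedentary arrays were the lowest of all 16. The difference was -0.22 ± 0.064 in sedentary rats (adjusted p = 0.0545) and -0.05 ± 0.064 in trained rats (adjusted p = 0.946). In sedentary rats it passed with arrays centred on their medians (-0.28, adjusted p = 0.0215) and under 3 other settings. Without HCR sedentary rat 4 it was -0.185 (adjusted p = 0.15), without HCR sedentary rat 5 -0.234 (adjusted p = 0.117), and without LCR trained rat 2 it passed (adjusted p = 0.0335). A second probe set of Uqcc1, with a mean of 9.57, had -0.0306 in sedentary rats.

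Uqcc4 had 8.11, 7.97, 7.93 and 7.74 in HCR trained rats and 7.77, 7.69, 7.58 and 7.91 in HCR sedentary rats. It had 8.22, 7.87, 8.21 and 8.20 in LCR trained rats and 8.07, 7.95, 8.05 and 7.85 in LCR sedentary rats. Of the HCR sedentary arrays, 3 lay below all LCR arrays. Its averaged line difference was -0.21 ± 0.067 (adjusted p = 0.0753), and it passed without LCR trained rat 2 (adjusted p = 0.023). Uqcc3 and Uqcc5 had averages of -0.19 ± 0.068 and -0.23 ± 0.091 (adjusted p = 0.109 and 0.141), with values in LCR groups that overlapped those in HCR groups. Uqcc2 stood at -0.10 ± 0.064 in sedentary and 0.07 ± 0.064 in trained rats.

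**Figure D2:**
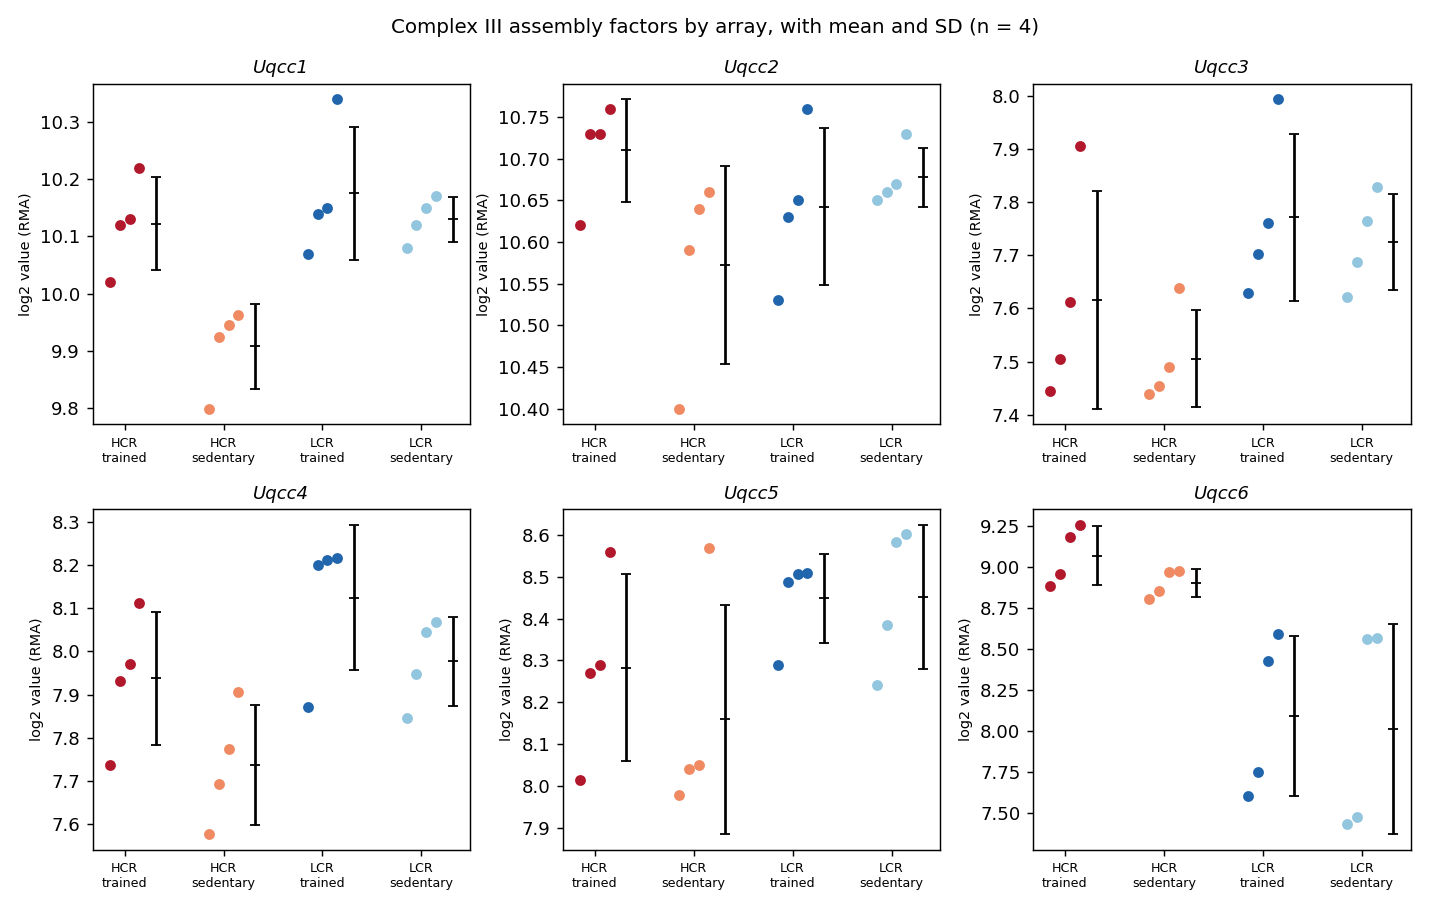
Values of the 6 assembly factors of complex III in each array, on a log2 scale, with points for rats and bars for the mean and SD of the 4 rats of a group. Uqcc6 lies at or above 8.80 in all HCR arrays and at or below 8.59 in all LCR arrays. Uqcc1 is lowest in the 4 HCR sedentary arrays. Axes do not start at 0.

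The complex II assembly factors had differences between -0.254 and 0.0098 in sedentary rats. Sdhaf2, which attaches the flavin to Sdha, had 9.06, 9.02, 9.01 and 8.87 in HCR trained rats and 9.10, 8.73, 8.76 and 8.83 in HCR sedentary rats. It had 8.81, 9.00, 8.98 and 9.06 in LCR trained rats and 9.06, 9.06, 9.14 and 9.18 in LCR sedentary rats. Of the HCR sedentary arrays, 3 lay below the LCR sedentary range, and that of rat 3 lay within it. The line difference was -0.25 ± 0.079 in sedentary rats (adjusted p = 0.0657) and 0.03 ± 0.079 in trained rats. In sedentary rats it passed with centred arrays (adjusted p = 0.0406) and without HCR sedentary rat 3 (adjusted p = 0.0237), and it was -0.223 without rat 5 (adjusted p = 0.172). Its second probe set had -0.117 in sedentary rats. Sdhaf4, which binds flavinylated Sdha, stood at -0.17 ± 0.073 in sedentary rats with no overlap of the groups (adjusted p = 0.154). Sdhaf3 and Sdhaf1, which mature the iron-sulfur centres of Sdhb, stood at -0.12 ± 0.079 and 0.0098 ± 0.054.

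Of the marker lists of other cell types, smooth muscle had 1 of 4 genes called between the sedentary groups, fibroblast 1 of 7 and lymphocyte 1 of 4. The other lists had 0, and 6.3% of all genes were called in this comparison. Averaged over the list, smooth muscle markers ranged from 7.356 to 7.768 in HCR sedentary and 7.208 to 7.556 in LCR sedentary rats. Fibroblast markers ranged from 8.955 to 9.213 in HCR sedentary and 9.202 to 9.41 in LCR sedentary rats, and lymphocyte markers from 5.567 to 5.711 in HCR sedentary and 5.602 to 5.834 in LCR sedentary rats. All 3 pairs of ranges overlapped. Their part in the assembly factor values was not tested. In pieces of ventricle, fewer cells of a type and less RNA per cell cannot be told apart.

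Training gave 0 called members in either line. In HCR 0 of 55 were called, beside 0% of all genes, and 5 had an unadjusted p under 0.05, beside 14.7% of all genes. In LCR 0 were called, beside 0% of all genes, and 1 had such a p, beside 6.77% of all genes. Averaged over lines 0 members were called, beside 0.00703% of all genes, and 5 (9.09%) had such a p, beside 10.6% of all genes. The median difference over members was 0.00291 in HCR and 0.00709 in LCR, beside 0.0059 and -0.00454 over all genes. Arrays did not overlap for 2 members in HCR, beside 8.29% of all genes, namely Uqcc1 (higher in trained rats) and Sdha (lower). They did not overlap for 5 members in LCR, beside 3.42% of all genes, namely Sdhaf3, Cox7a1 and Atp5mpl (higher in trained rats) and Sdhaf2 and Uqcrfs1 (lower). Averaged over lines, the 95% interval lay within 1.25-fold for 53 members (96.4%), beside 92.2% of all genes.

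Cox7a1, the heart and muscle isoform of complex IV subunit VIIa, had the lowest p of all members for training in LCR and averaged over lines. It had 10.65, 10.39, 10.46 and 10.50 in HCR trained rats, against 9.84, 9.58, 10.42 and 10.22 in HCR sedentary rats. It had 10.15, 10.61, 10.11 and 10.50 in LCR trained rats, against 9.48, 10.03, 9.92 and 9.96 in LCR sedentary rats. The LCR groups did not overlap, and in HCR rat 5 of the sedentary group exceeded the lowest trained value. Trained minus sedentary was 0.48 ± 0.17 in HCR and 0.49 ± 0.17 in LCR. Averaged over lines it was 0.49 ± 0.12, a fold of 1.40 (unadjusted p = 0.000671, adjusted p = 0.249), which did not pass the test. Without HCR sedentary rat 5 it was 0.56 (adjusted p = 0.249). Values of the other heart and muscle isoforms in the same average were -0.02 ± 0.033 for Cox6a2 and 0.03 ± 0.036 for Cox8b, and both intervals lay within 1.25-fold.

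The promoter window of Cox7a1 is shown for the member with the lowest p for training averaged over lines, and that of Atp5mc3, a c-ring subunit of complex V, for a member with a flat training value and 2 motifs. They lie at chr1:94568966-94569265, plus strand, and chr3:79220615-79220914, minus strand of GRCr8. Capitals in Atp5mc3 mark, in order, the ERR element TCAAGGTCA and the NRF1 core, both on the opposite strand. ERR stands for the estrogen-related receptors, known to act on respiratory genes in heart.
Cox7a1 promoter: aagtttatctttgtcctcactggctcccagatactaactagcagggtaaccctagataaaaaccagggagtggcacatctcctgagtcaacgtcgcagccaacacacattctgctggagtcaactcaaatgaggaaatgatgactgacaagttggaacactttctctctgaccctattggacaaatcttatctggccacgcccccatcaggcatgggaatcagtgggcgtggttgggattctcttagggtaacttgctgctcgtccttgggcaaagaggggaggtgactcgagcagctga
Atp5mc3 promoter: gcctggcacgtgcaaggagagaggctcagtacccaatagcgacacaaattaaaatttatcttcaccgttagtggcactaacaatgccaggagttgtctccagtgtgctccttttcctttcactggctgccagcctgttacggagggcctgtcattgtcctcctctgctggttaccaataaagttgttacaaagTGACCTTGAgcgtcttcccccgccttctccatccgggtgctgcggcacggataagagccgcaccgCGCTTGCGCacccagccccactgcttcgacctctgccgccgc
The Cox7a1 window held none of the 4 motifs searched on both strands, which were these and the GABP site CCGGAAGTG and the YY1 site AAGATGGCG. The ERR element was in 2 of 48 member windows (4.17%), those of Atp5mc3 and Sdhd, beside 0.433% of all windows. GABP sites were in 3 (6.25%), those of Cox5b, Uqcrh and Uqcrq, beside 1.89% of all windows. YY1 sites were in 3 (6.25%), those of Uqcrc1, Atp5mf and Atp5pf, beside 1.73%. Atp5mc3 had a training average of -0.03 ± 0.030 (adjusted p = 0.777).

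**Figure D3:**
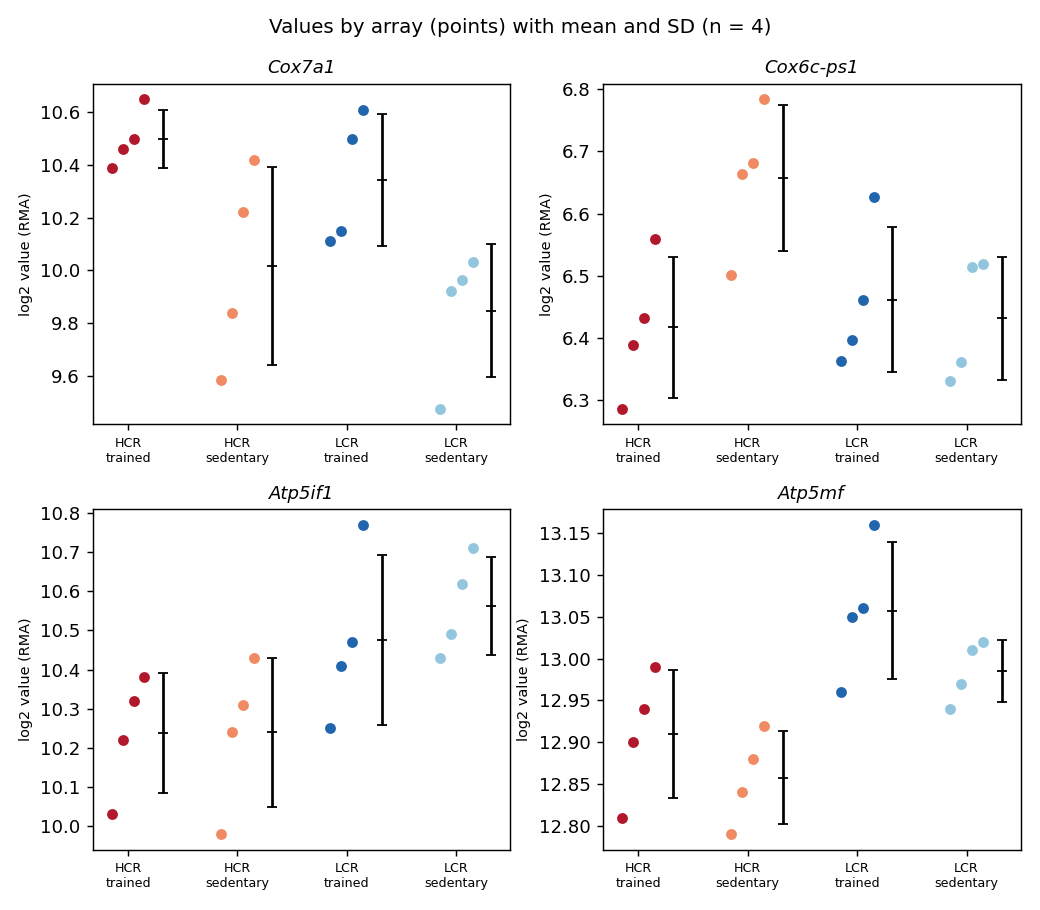
Log2 values by array of Cox7a1, Cox6c-ps1, Atp5if1 and Atp5mf in the 4 groups, with points for rats and bars for the mean and SD of the 4 rats. Cox7a1 has means of 10.50 in HCR trained against 10.02 in HCR sedentary rats, and 10.34 in LCR trained against 9.85 in LCR sedentary rats. Axes do not start at 0.

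Atrial markers, a check on how much atrium was in the samples, had lower means in trained than in sedentary rats of both lines. Their averaged level had means of 6.551 in HCR trained and 7.138 in HCR sedentary rats, and 6.639 in LCR trained and 7.152 in LCR sedentary rats. The trained and sedentary ranges overlapped in both lines. The averaged level of Myl4, Myl7 and Sln ranged from 6.05 to 6.90 in HCR trained rats against 6.49 to 7.82 in HCR sedentary rats, and from 6.19 to 7.30 in LCR trained rats against 6.77 to 7.38 in LCR sedentary rats. None of these 3 genes was called in any comparison. Their part in the Cox7a1 values was not tested.

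All 10 assembly factors among the members lay above 0 at trained minus sedentary in HCR, with a median of 0.136, beside -0.00291 over the 42 subunits and 0.0059 over all genes. Of all 14217 genes, 7382 lay above 0, and with only probe sets at or above the median mean the median over genes was 0.0463. Of 31 other measured assembly factors 27 lay above 0 (median 0.101), and of 34 complex I subunits 28 (median 0.0391). In LCR 7 of the 10 lay above 0, with a median of 0.0452, beside 13 of the 31 others (median -0.00853). None of the 10 was called for training. Uqcc1 had the lowest p in HCR, at 0.22 ± 0.064 (adjusted p = 0.221), and 0.04 ± 0.064 in LCR. Sdhaf3 had 8.57, 8.73, 8.42 and 8.69 in HCR trained rats against 8.48, 8.22, 8.40 and 8.61 in HCR sedentary rats. It had 8.77, 8.64, 8.75 and 8.66 in LCR trained rats against 8.55, 8.54, 8.59 and 8.49 in LCR sedentary rats, with no overlap in LCR. Its average over lines was 0.17 ± 0.056 (adjusted p = 0.409). Uqcc6 stood at 0.17 ± 0.25 in HCR and 0.08 ± 0.25 in LCR. The HCR training values and the sedentary line values share the HCR sedentary arrays, so they are not separate observations.

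Median training values over the subunits lay near 0 in every complex, with Cox7a1 far above the median of complex IV. In HCR the medians over subunits were -0.0162 in complex II, 0.0199 in complex III, 0.00488 in complex IV and -0.00699 in complex V. In LCR they were -0.0491 in complex II, -0.0164 in complex III, 0.00969 in complex IV and 0.00578 in complex V. Sdha was the complex II subunit of lowest p, at -0.06 ± 0.033 averaged over lines (adjusted p = 0.583). For Uqcrc1, Cox4i1, Atp5f1a and Atp5f1b the averages were 0.0099 ± 0.036, 0.01 ± 0.035, -0.02 ± 0.032 and -0.0012 ± 0.033, each with an interval within 1.25-fold. Atp5mpl, a small membrane subunit of complex V, had the lowest p above 0 in that complex, at 0.07 ± 0.037 (adjusted p = 0.605).

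**Figure D4:**
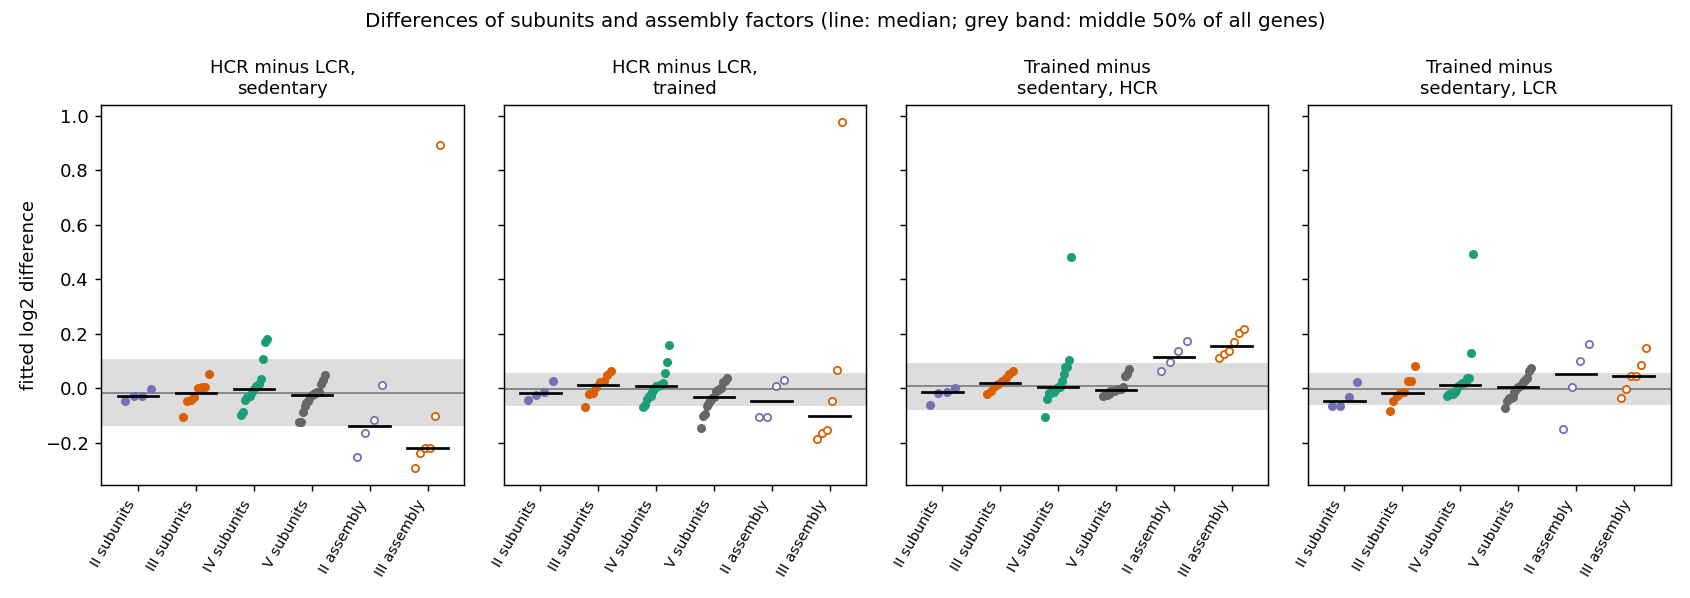
Fitted log2 differences of subunits (filled) and assembly factors (open) by complex in the 4 comparisons of 2 groups, with a black line at each median and a grey band for the middle 50% of all genes. Assembly factors of complex III have a median of -0.221 in the sedentary line comparison and 0.153 for training in HCR, and the subunit medians lie between -0.0491 and 0.0199 in all 4 panels.

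A test of whether training acted differently in the 2 lines called 0 members, beside 0% of all genes. An unadjusted p under 0.05 was found for 2 members (3.64%), beside 10.7% of all genes. These were Sdhaf2 at 0.28 ± 0.11 (adjusted p = 0.482) and Cox6c-ps1 at -0.27 ± 0.11 (adjusted p = 0.487). The median over members was 0.0111, beside 0.0115 over all genes. For Cox7a1 the difference was -0.01 ± 0.23, with a 95% interval from -0.506 to 0.483, which reached about as far as the training value itself.

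Members differed in how much rats of 1 group varied. The median within-group SD was 0.052 over subunits and 0.114 over assembly factors, beside 0.112 over all genes. By complex, the median over subunits was 0.0448 in complex II, 0.049 in complex III, 0.0594 in complex IV and 0.0429 in complex V. Uqcc6 had the highest SD of all members, at 0.415, followed by Cox7a1 at 0.266. After group means were removed, pairs of subunits within complex II had a median correlation of 0.424 over the 16 arrays, within complex III 0.366, within complex V 0.245 and within complex IV 0.018. Pairs from different complexes had 0.256, and pairs of an assembly factor and a subunit 0.0348. Complex IV alone held subunits of low signal, Cox6b2 and Cox7b2 (means of 4.98 and 5.03) and Cox4i2 and Cox5a (7.51 and 7.70). The lowest subunit mean of the other complexes was 11.73 (Atp5me). The part of low signal in the complex IV correlation was not tested. All pairs share the arrays and their scaling, so these correlations are descriptions.

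**Figure D5:**
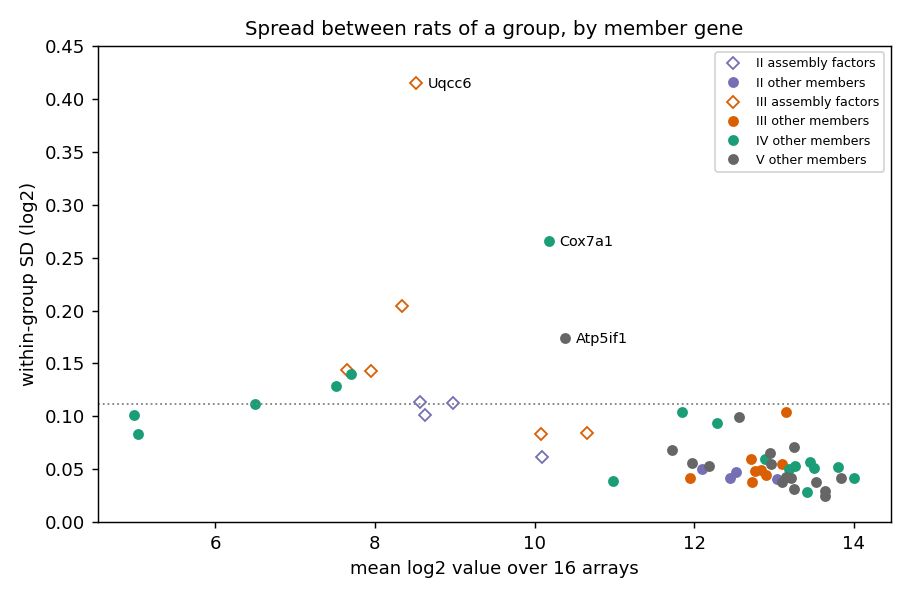
Pooled within-group SD of each member against its mean log2 value over the 16 arrays. Colours are complexes and open diamonds assembly factors. Subunits gather at the lower right, and Uqcc6, Cox7a1 and Atp5if1 are named. The dotted line is the median SD of all genes, 0.112.

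Genes around these complexes were read for comparison, from lists chosen with earlier results of these data known. Of 34 other listed assembly factors of complexes III to V, 31 were measured, and averaged over training 3 (9.68%) were called, each lower in HCR, beside 4.92% of all genes. Fmc1, a factor for complex V, had -0.21 ± 0.040 (adjusted p = 0.0128), Ttc19, a factor for complex III, -0.28 ± 0.070 (adjusted p = 0.039), and Cox16, a factor for complex IV, -0.24 ± 0.065 (adjusted p = 0.0475). The Fmc1 call held without each array in turn, while Ttc19 and Cox16 passed in 5 and 4 of the 16 such fits and not without HCR sedentary rat 5 (adjusted p = 0.0801 and 0.0918). In sedentary rats 1 of the 31 (3.23%) was called, beside 6.3% of all genes, namely Fmc1 at -0.25 ± 0.057 (adjusted p = 0.0303), which did not pass without HCR sedentary rat 4 or 5 or LCR sedentary rat 3, 5 or 6 (adjusted p up to 0.0958). Over the 31 the median was -0.0718 in sedentary rats and 0.0268 in trained rats. Of 15 regulators, 2 (13.3%) were called in sedentary rats, beside 6.3% of all genes, both lower in HCR and both acting in the transcription of mitochondrial DNA. Tfb2m had -0.48 ± 0.097 (adjusted p = 0.0233) and Tfam -0.27 ± 0.070 (adjusted p = 0.0404) in sedentary rats. Tfb2m did not pass without HCR sedentary rat 4 or LCR sedentary rat 3 or 6 (adjusted p up to 0.0688) and had -0.514 without HCR sedentary rat 5 (adjusted p = 0.0496). Tfam did not pass without HCR sedentary rat 4, 5 or 6 or any 1 LCR sedentary rat (adjusted p up to 0.12). Averaged over training the same 2 of 15 (13.3%) were called, both lower in HCR, beside 4.92% of all genes. Tfb2m had -0.356 (adjusted p = 0.0128) in this average and was called without each array in turn. Tfam had -0.219 (adjusted p = 0.0258) and passed in 10 of the 16 such fits, but not without HCR sedentary rat 5 (adjusted p = 0.0579). The mitochondrially encoded complex IV subunits COX1 and COX2 stood at 0.04 ± 0.062 and 0.05 ± 0.045 in sedentary rats (adjusted p = 0.687 and 0.498). Of 34 measured complex I subunits and 7 carriers and channels for ATP and phosphate, 0 were called in any comparison.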

How the data were processed

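RNA of the left ventricle was measured in 16 rats on 1 array each, and groups and rat numbers came from the sample titles. The deposited log2 values come from RMA as the authors ran it, per the submitters' processing notes, where tools carry no version. The log base, not given in the sources used here, was taken as 2 because values run from 3.24 to 14.54. The deposited table held 31099 probe sets, of which 57 controls were left out and 31042 tested. Gene names came from the platform's annotation, where 20826 probe sets had 1 symbol, 436 several and 9780 were not listed. Promoter windows came from RefSeq (GRCr8).

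All 16 arrays entered 1 linear model per probe set (lmFit, contrasts.fit and eBayes of limma 3.58.1, R 4.3.3), with a mean for each group, no covariate and 12 residual degrees of freedom. The 7 comparisons were HCR minus LCR in sedentary rats, in trained rats and averaged, trained minus sedentary in HCR, in LCR and averaged, and the difference between the training responses. Tests were two-sided, with Benjamini-Hochberg adjustment over 31042 probe sets. The number of arrays limits the precision. The fit was checked on simulated data. Counts of genes used the probe set of highest mean per gene.

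The members and lists were chosen with earlier results of these data known. Named genes were every called member, the member of lowest p per complex, direction and comparison, and preset core subunits and isoforms; the text adds other members of each group, chosen after their values were seen. Of 11 pairs of rats with the same number in 2 groups, 4 deviated together at r over 0.1 (range -0.231 to 0.261). For 3 of the 11 the same number was the best match. These values show no clear pairing, but 11 pairs of single arrays cannot exclude one. The main fit used no pairing. Alternatives changed the array scaling, a filter on low signal, the probe sets used, the variance prior, the arrays in the fit, a replicate block and each array left out.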

Additional observations from a re-analysis of the deposited data

Results flagged for a closer look

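In 31 named members and 4 groups, 124 sets of 4 rats were searched for a rat far from the other 3, and 5 were found, where chance gives about 1 in 20. In LCR trained rats, rat 2 had 7.87 for Uqcc4, below 8.20 to 8.22 in the other 3, and 13.17 for Uqcrc1, above 13.07 to 13.08. In HCR trained rats, rat 4 had 12.33 for Sdha, below 12.40 to 12.42, and 13.62 for Atp5mc3, below 13.65. In HCR sedentary rats, rat 4 had 12.78 for Cyc1, below 12.86 to 12.87.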

How the results depend on the processing

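The Uqcc6 line difference averaged over training was called under all 7 other settings and without each array. In sedentary rats the 0 members called became 2 with arrays centred on their medians, with only the brighter probe sets, with 1 probe set per gene tested and with the replicate block, and 1 with the mean of a gene's probe sets and with only the compared arrays. Averaged over training the 1 called became 5 with centring, 3 with the brighter probe sets, 3 with 1 probe set per gene, and 2 with the mean of probe sets and with the trended robust prior. Calls over all probe sets moved too, from 1549 in sedentary rats to 2460 with centring and 3000 with the replicate block. A further quantile normalization lowered this sedentary number to 543. Averaged over training, calls over all probe sets went from 1191 to 1779 with centring, 1095 with the trended robust prior and 723 with quantile normalization. With the brighter probe sets they were 1345 in sedentary rats and 1204 averaged, of 15521 tested. With 1 probe set per gene they were 1254 and 1040 of 14217. With 1 array left out the sedentary count ranged from 0 to 2 and the averaged count from 1 to 4 (4 without LCR trained rat 2, 3 without HCR trained rat 3, 2 without HCR sedentary rat 3 or 6). The sedentary count was 2 without LCR trained rat 2, and 1 without HCR sedentary rat 3 or LCR trained rat 1, 3 or 4. Without LCR trained rat 2, 7.88% of all genes were called in sedentary rats and 10.2% averaged, beside 6.3% and 4.92% with all arrays. The averaged share was 5.68% without HCR trained rat 3, and 6.06% and 3.72% without HCR sedentary rats 3 and 6. The sedentary share was 7.6% without HCR sedentary rat 3, and 5.98%, 5.4% and 7.71% without LCR trained rats 1, 3 and 4. Uqcc6 in sedentary rats had an adjusted p of 0.0403 with 1 probe set per gene, where fewer p-values are adjusted, and 0.0449 with the replicate block. Uqcc1 in sedentary rats passed with centring, the brighter probe sets, 1 probe set per gene and only the compared arrays (adjusted p = 0.0215, 0.0471, 0.0441 and 0.045), Sdhaf2 with centring (0.0406), and Cox6c-ps1 with the replicate block (0.3, adjusted p = 0.0291). Averaged over training, Atp5if1 passed with 1 probe set per gene, centring and the brighter probe sets (0.0438, 0.0391 and 0.048). The block moved the median over members to -0.0128 in sedentary and -0.0404 in trained rats, with all genes at -0.0224 and -0.0107.

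Centring moved the medians over members to -0.0889 for the sedentary line difference, -0.0524 for its average, 0.0394 for training in HCR and 0.0585 for the difference between training responses, with all genes at -0.076, -0.041, 0.0424 and 0.0589.

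These values, all uncalled, changed sign, and the cause was not tested. With centring, the averaged line difference was -0.0107 for Atp5f1b, -0.00895 for Cox4i1, -0.0234 for Cox6a2, -0.00791 for Cyc1, -0.0262 for Sdhaf1 and -0.0286 for Uqcrfs1. In sedentary rats it was -0.0115 for Atp5f1b and -0.0486 for Sdhaf1. Training in HCR was 0.00656 for Atp5f1a and 0.014 for Uqcrc2, and averaged training 0.0116 for Atp5f1b and 0.00537 for Cyc1. With quantile normalization, averaged training was 0.00198 for Atp5f1b and -0.0184 for Cox7a2l, and the averaged line difference 0.00321 for Cox6a1 and 0.00347 for Uqcrc1. With the replicate block, averaged training was 0.0147 for Atp5f1b, 0.00184 for Cox6a2 and 0.022 for Cyc1, training in LCR 0.0175 for Cox5b, and the line difference -0.0145 for Cox4i2 in trained rats and -0.00965 for Cox6a2 averaged.

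With 1 array left out, averaged training ranged from -0.00962 to 0.013 for Atp5f1b, -0.00128 to 0.0187 for Cox7a2l, -0.00242 to 0.0494 for Cox8a, -0.0197 to 0.00417 for Cyc1, -9.3e-05 to 0.0192 for Sdhb and -0.002 to 0.0241 for Uqcrc1. The averaged line difference ranged from -0.00188 to 0.0184 for Cox6a2, -0.00396 to 0.0281 for Sdhaf1, -0.017 to 0.0077 for Uqcrc1 and -0.00299 to 0.0197 for Uqcrfs1. In sedentary rats it ranged from -0.0151 to 0.049 for Sdhaf1, and in trained rats from -0.00343 to 0.0504 for Sdhc.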
